A study of Homo sapiens with 21 samples.

Results

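ETS transcription factors are DNA-binding proteins that share the ETS domain, which reads a GGAA core. Those described here, taken by gene symbol, are 9: the PEA3 factors ETV1, ETV4 and ETV5, the founding members ETS1 and ETS2, the repressors ELK3 and ERF, and the epithelial factors ELF3 and EHF. All 9 were found among the 34021 genes of an RNA-seq expression matrix of H1975, a human lung adenocarcinoma line whose growth depends on mutant EGFR. The groups were OC, cells given 500 nM osimertinib with overexpression of cIGF1R for 8 days; OL+EV, cells given 500 nM osimertinib with 500 nM linsitinib for 8 days; and DMSO+EV, cells given DMSO for 8 days. Each group held 3 libraries. Osimertinib inhibits mutant EGFR, linsitinib inhibits the IGF1 and insulin receptors, and cIGF1R is, by its name and the topic of the series, a circular RNA of the IGF1R gene. The labels do not spell out EV. They give the genotype of OC as cIGF1R overexpression and of OL+EV and DMSO+EV as WT, and OL+EV carries EV in its title but not in its treatment field. No group had osimertinib with EV and without linsitinib, so the drug and cIGF1R cannot be told apart in OC against DMSO+EV, and linsitinib and cIGF1R cannot be told apart in OC against OL+EV. For the same reason osimertinib and linsitinib cannot be told apart in OL+EV against DMSO+EV. The 12 circular RNA libraries of the series, from cells treated for 3 days, were not analysed here.

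The PEA3 genes are textbook outputs of EGFR, RAS and ERK signalling: ERK relieves their repression by CIC, and the COP1 ubiquitin ligase removes their proteins. ETS1 and ETS2 proteins are activated when ERK phosphorylates them. ELK3 is a repressor that ERK phosphorylation turns into an activator, and ERF is a repressor that ERK sends out of the nucleus. ELF3 and EHF are found in epithelia, among them that of the lung airways, where they drive genes of differentiated epithelial cells.

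Values are FPKM, fragments scaled to gene length and to library size, as the values point to; the matrix names no unit. FPKM is per length, so levels of different genes can be set side by side. Read depth is unknown. The sum of all FPKM per library was 338034 to 381311 in OC, 423319 to 432563 in OL+EV and 429553 to 474156 in DMSO+EV. Over tested genes, libraries of 1 group correlated at 0.986 to 0.994 and libraries of different groups at 0.817 to 0.929 (Pearson, log2 scale, across genes, which are not independent replicates). Whether the replicates are separate cultures is not labelled, so a p-value here speaks of the spread among libraries, which may be technical. Epithelial markers summed to 12440 to 15202 FPKM in OC, 13231 to 14406 FPKM in OL+EV and 11203 to 12464 FPKM in DMSO+EV, mainly keratins, with the lung markers SFTPB and SFTPC at or near 0. Leukocyte markers summed to 2.53 to 4.48 FPKM in OC, 2.47 to 3.30 FPKM in OL+EV and 1.85 to 2.25 FPKM in DMSO+EV, mostly CD14 in OC. CD14 was called higher in OC than in DMSO+EV (log2 fold change 0.63, limma adjusted p = 0.0153) and than in OL+EV (0.75, limma adjusted p = 0.0069). ITGAM went the other way, lower in OC than in OL+EV (-0.80, limma adjusted p = 1.39e-05). In OL+EV it averaged 1.22 FPKM, higher than in DMSO+EV (0.76, limma adjusted p = 2.60e-05). ITGAM reached 1 FPKM in OL+EV alone and was tested for that reason, so its calls were partly set by the filter. Fibroblast markers summed to 5.60 to 6.10 FPKM in OC, 3.34 to 3.70 FPKM in OL+EV and 3.38 to 3.75 FPKM in DMSO+EV, nearly all COL1A1, which was called higher in OC than in DMSO+EV (0.55, limma adjusted p = 9.94e-05) and than in OL+EV (0.62, limma adjusted p = 5.31e-05). Endothelial markers summed to 0.783 to 0.972 FPKM in OC, 0.171 to 0.240 FPKM in OL+EV and 3.55 to 4.12 FPKM in DMSO+EV, in DMSO+EV mostly from CDH5. CDH5 was called lower than in DMSO+EV in OC (-1.56, limma adjusted p = 8.95e-09) and in OL+EV (-1.97, limma adjusted p = 2.44e-09). It reached 1 FPKM in DMSO+EV alone and was tested for that reason, so these falls were partly set by the filter. The part of these 3 marker sets in the results on ETS genes was not tested. In bulk RNA, fewer cells that use a gene and less of its RNA per cell cannot be told apart.

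ELF3 and EHF were the members that rose in both osimertinib groups (values below their sequences), and the windows before their starts are shown for that reason. Sequences are those of RefSeq on GRCh38.p14, the 250 bases before a transcript start, 5′ to 3′ on the gene's strand. In capitals is the match found to any of 7 motifs searched on both strands. These were the NF-kB consensus, TTCNNNGAA (STAT), GTAAACA (FOXO), TGAATGAA and TGAATGGA (CIC, alike but for the next to last letter), CCGGAA (ETS) and TGANTCA (AP-1).
ELF3, chr1:202010337-202010586, plus strand: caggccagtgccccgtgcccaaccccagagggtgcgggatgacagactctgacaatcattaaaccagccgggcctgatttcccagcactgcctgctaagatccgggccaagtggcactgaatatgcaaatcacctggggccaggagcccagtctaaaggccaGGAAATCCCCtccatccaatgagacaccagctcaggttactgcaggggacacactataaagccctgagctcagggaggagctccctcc
EHF, chr11:34624007-34624256, plus strand: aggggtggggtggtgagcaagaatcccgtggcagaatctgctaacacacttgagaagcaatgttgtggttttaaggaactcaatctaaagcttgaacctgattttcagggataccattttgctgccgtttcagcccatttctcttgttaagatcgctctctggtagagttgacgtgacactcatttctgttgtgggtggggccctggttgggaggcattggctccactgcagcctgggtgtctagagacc
EHF, chr11:34632316-34632565, plus strand: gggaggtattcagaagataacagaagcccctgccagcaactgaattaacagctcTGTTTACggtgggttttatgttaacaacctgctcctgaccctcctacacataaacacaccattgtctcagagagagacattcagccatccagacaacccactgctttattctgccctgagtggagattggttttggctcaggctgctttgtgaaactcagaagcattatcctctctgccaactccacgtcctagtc

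The ELF3 window held 1 NF-kB match, on the minus strand, 88 to 79 bases before the start; 5.21% of 35116 RefSeq windows of this length held one. The second EHF window held 1 GTAAACA on the minus strand, 196 to 190 bases before the start, a motif in 2.98% of windows. The first EHF window held none of the 7 motifs. In all, 6 of the 9 members had an entry, with 16 windows between them; ETV4, ETV5 and ETS1 had none. Among the other members, ERF held 1 NF-kB match, and 3 windows of ETV1 each held CCGGAA, which 14.5% of all windows held. The ETV1 windows before the starts at 13990702 and 13990706 overlap, and their CCGGAA is the same site. The ETV1 window that ends at its outermost start also held TGAATGGA, a CIC octamer in 0.832% of windows. A match is a run of letters, not a measured binding site.

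ELF3 was the most abundant ETS gene in every group, and its level stepped up in both osimertinib groups. ELF3 (chr1:202010587-202017183) had 234, 234 and 265 FPKM in OC, 149, 146 and 142 FPKM in OL+EV, and 75.1, 74.5 and 69.3 FPKM in DMSO+EV. The 3 groups did not overlap: OC was the highest and DMSO+EV the lowest. The OC mean of 244 ± 18.1 FPKM was 3.35 times that of DMSO+EV, 73.0 ± 3.19 FPKM (SD, n = 3 each), a log2 fold change of log2(FPKM + 1) of 1.73 (SE 0.09, limma adjusted p = 2.20e-09). The OL+EV mean, 146 ± 3.86 FPKM (SD, n = 3), was 2.00 times that of DMSO+EV, a log2 fold change of 0.99 (SE 0.09, limma adjusted p = 1.50e-06). OC was 1.68 times OL+EV, a log2 fold change of 0.74 (SE 0.09, limma adjusted p = 1.85e-05).

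EHF (chr11:34621093-34663288), the closest relative of ELF3 among the members, rose less. EHF had 33.6, 32.7 and 31.3 FPKM in OC, 18.3, 17.3 and 17.1 FPKM in OL+EV, and 14.1, 13.6 and 16.6 FPKM in DMSO+EV. OC stood well above both other groups, while OL+EV and DMSO+EV were close together without overlap. Against DMSO+EV, OC was 2.21 times as high (log2 fold change 1.09, SE 0.09, limma adjusted p = 1.88e-07) and OL+EV 1.19 times (0.24, SE 0.09, limma adjusted p = 0.0407). OC was 1.85 times OL+EV (0.85, SE 0.09, limma adjusted p = 4.51e-06). The rise of EHF in OL+EV missed the threshold in 10 of the 19 alternatives that set no minimum fold, its limma adjusted p ranging from 0.00817 to 0.154.

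**Figure D1:**
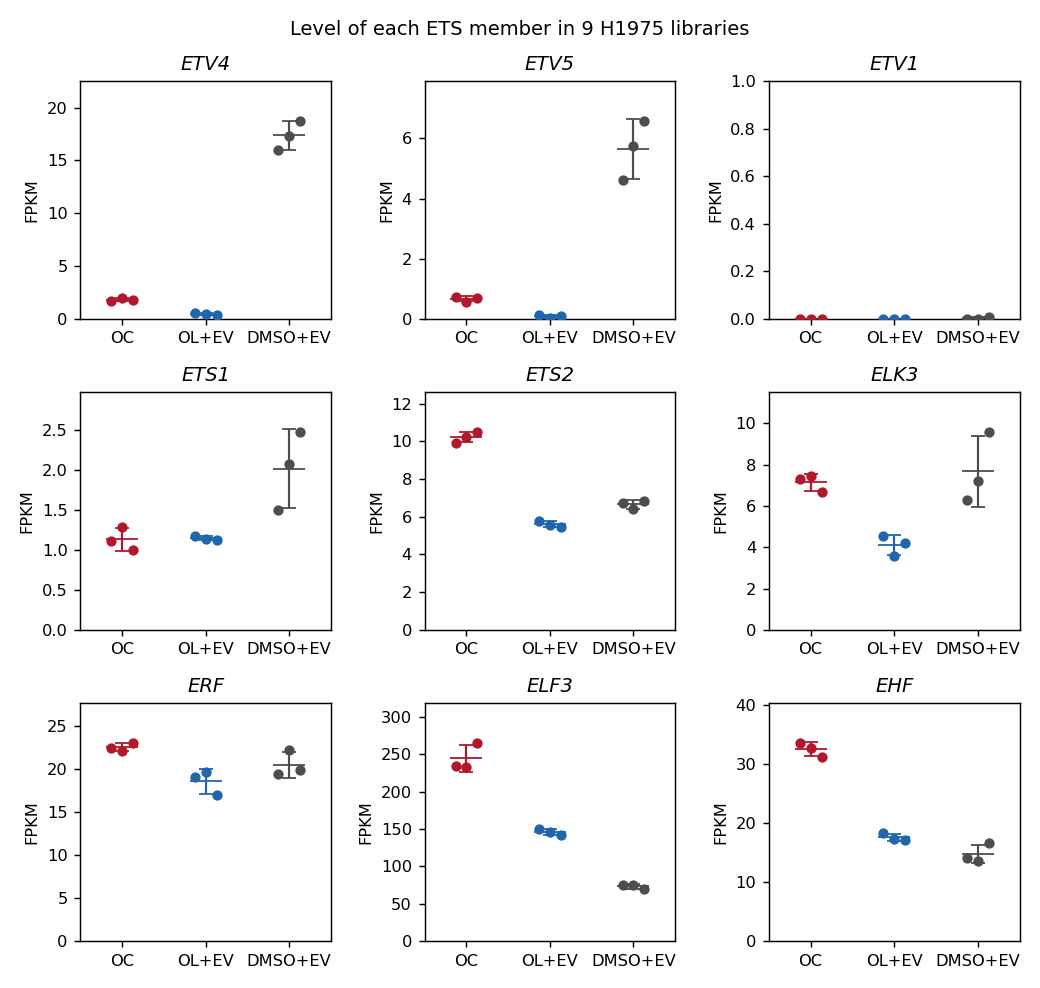
FPKM of each of the 9 ETS members (vertical axis, linear, own scale per panel) in OC, OL+EV and DMSO+EV. Points are libraries, 3 per group, and bars the mean and SD. ELF3 and EHF are highest in OC, ETV4 and ETV5 are highest in DMSO+EV and lowest in OL+EV, and ETV1 is at or near 0 throughout.

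ETV4 and ETV5 fell in both osimertinib groups, to a lower level in OL+EV than in OC. ETV4 (chr17:43527846-43546340) had 1.69, 1.99 and 1.73 FPKM in OC, 0.513, 0.415 and 0.349 FPKM in OL+EV, and 16.0, 17.3 and 18.8 FPKM in DMSO+EV. No value of one group reached into another, and the OC libraries lay between the other groups. The OC mean of 1.80 ± 0.161 FPKM was 10.4% of the DMSO+EV mean of 17.4 ± 1.40 FPKM, and the OL+EV mean of 0.425 ± 0.0825 FPKM was 2.45% of it (SD, n = 3 each). The log2 fold changes against DMSO+EV were -2.71 in OC (SE 0.10, limma adjusted p = 3.82e-11) and -3.69 in OL+EV (SE 0.10, limma adjusted p = 1.73e-11). OC was 4.24 times OL+EV, which on the log2(FPKM + 1) scale was 0.98 (SE 0.10, limma adjusted p = 2.58e-06). This scale understates changes of low values: with a pseudocount of 0.1 in place of 1 the 3 log2 fold changes of ETV4 were -3.20, -5.06 and 1.86, and with 5 they were -1.71, -2.04 and 0.33. The gene overlaps DHX8, an RNA helicase of the spliceosome, which averaged 7.25 ± 0.769 FPKM in OC, 5.86 ± 0.404 FPKM in OL+EV and 5.62 ± 0.846 FPKM in DMSO+EV (SD, n = 3 each). Unlike ETV4, DHX8 was higher in OC than in DMSO+EV (log2 fold change 0.32, SE 0.11, limma adjusted p = 0.0222). Its value in OL+EV against DMSO+EV, 0.06, did not pass (SE 0.11, limma adjusted p = 0.687).

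ETV5 (chr3:186046314-186109089) moved the same way at a lower level. ETV5 had 0.717, 0.569 and 0.699 FPKM in OC, 0.121, 0.0277 and 0.0733 FPKM in OL+EV, and 4.61, 5.76 and 6.59 FPKM in DMSO+EV. The groups again did not overlap, with OC between the other groups. The OC mean of 0.662 ± 0.0810 FPKM was 11.7% of that of DMSO+EV, 5.65 ± 0.995 FPKM, and the OL+EV mean of 0.0739 ± 0.0465 FPKM was 1.31% (SD, n = 3 each). ETV5 was tested because of its DMSO+EV libraries alone, the group where it is high, so its difference from that group was partly set by the filter. Log2 fold changes were -1.99 in OC (SE 0.12, limma adjusted p = 4.45e-09) and -2.62 in OL+EV (SE 0.12, limma adjusted p = 8.67e-10) against DMSO+EV, and 0.63 in OC against OL+EV (SE 0.12, limma adjusted p = 0.000402). With a pseudocount of 0.1 they were -2.91, -5.07 and 2.16, and with 5 they were -0.91, -1.07 and 0.16. ETV5 overlaps ETV5-AS1, an antisense gene not analysed here, and the use of strand in counting is not given in the sources used here. ETV1 (chr7:13891229-13991425), the remaining PEA3 gene, was listed at 0 FPKM in 8 libraries and at 0.0055 FPKM in 1 DMSO+EV library, and was not tested.

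In the sum of ETV4 and ETV5 the libraries held 2.40, 2.55 and 2.43 FPKM in OC, 0.633, 0.442 and 0.422 FPKM in OL+EV, and 20.6, 23.1 and 25.4 FPKM in DMSO+EV. The sum of ELF3 and EHF was 268, 266 and 297 FPKM in OC, 168, 163 and 159 FPKM in OL+EV, and 89.3, 88.0 and 85.9 FPKM in DMSO+EV. The epithelial pair thus exceeded the PEA3 pair on average 113-fold in OC, 337-fold in OL+EV and 3.85-fold in DMSO+EV. Over libraries this ratio ran from 104 to 122 in OC, 265 to 376 in OL+EV and 3.39 to 4.34 in DMSO+EV. In OL+EV it divides by sums below 1 FPKM at unknown depth, so its size there is uncertain. The order of this ratio differed from that of the ELF3 level: it was highest in OL+EV, where ETV4 and ETV5 were lowest, and ELF3 and EHF were highest in OC.

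ETS2 and ETS1 differed from each other. ETS2 (chr21:38805183-38824955) had 9.94, 10.2 and 10.5 FPKM in OC, 5.76, 5.56 and 5.47 FPKM in OL+EV, and 6.74, 6.41 and 6.85 FPKM in DMSO+EV. OC was the highest group and OL+EV the lowest, with no overlap. ETS2 rose in OC to 1.53 times the DMSO+EV mean (log2 fold change 0.55, SE 0.08, limma adjusted p = 4.84e-05) and to 1.83 times the OL+EV mean (0.77, SE 0.08, limma adjusted p = 4.44e-06). In OL+EV it was 0.839 times DMSO+EV (-0.22, SE 0.08, limma adjusted p = 0.0409), a call that was lost in 10 of the 19 such alternatives, with limma adjusted p from 0.00848 to 0.114.

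ETS1 (chr11:128458765-128587558) had 1.11, 1.29 and 0.995 FPKM in OC, 1.18, 1.14 and 1.12 FPKM in OL+EV, and 1.50, 2.08 and 2.48 FPKM in DMSO+EV. The OC and OL+EV libraries overlapped each other and both lay below DMSO+EV, whose own values spread widely. The OC mean was 0.561 times that of DMSO+EV (log2 fold change -0.49, SE 0.12, limma adjusted p = 0.00252) and the OL+EV mean 0.568 times (-0.48, SE 0.12, limma adjusted p = 0.0045). Between OC and OL+EV the difference was -0.01 (SE 0.12, limma adjusted p = 0.937, and 0.529 to 1 over the alternatives). With a pseudocount of 0.1 the 2 falls were -0.76 and -0.74, and with 5 both were -0.19. ETS1 overlaps the antisense gene ETS1-AS1, which was not analysed here.

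Of the repressors, ELK3 fell in OL+EV, and in OC its change against DMSO+EV did not pass. ELK3 (chr12:96194375-96269824) had 7.30, 7.45 and 6.68 FPKM in OC, 4.56, 3.58 and 4.19 FPKM in OL+EV, and 6.28, 7.19 and 9.60 FPKM in DMSO+EV. OC lay within the range of DMSO+EV, and every OL+EV library lay below both. ELK3 in OL+EV was 0.535 times DMSO+EV (log2 fold change -0.75, SE 0.13, limma adjusted p = 0.000312), and in OC 1.74 times OL+EV (0.68, SE 0.13, limma adjusted p = 0.000604). For OC against DMSO+EV the log2 fold change was -0.08 (SE 0.13, limma adjusted p = 0.617), and 0.08 without DMSO+EV replicate 3. With a pseudocount of 5 the 2 calls of ELK3 were -0.47 and 0.42.

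ERF (chr19:42247569-42255128) was the member that varied least between groups among those above 1 FPKM. ERF had 22.4, 22.1 and 23.0 FPKM in OC, 19.1, 19.7 and 17.0 FPKM in OL+EV, and 19.4, 22.3 and 19.9 FPKM in DMSO+EV. DMSO+EV overlapped both other groups, and OC lay above OL+EV. The difference between OC and OL+EV, 0.27 (SE 0.09, limma adjusted p = 0.0204), passed, but not without OC replicate 1 (limma adjusted p = 0.0501) or without OL+EV replicate 3 (limma adjusted p = 0.103). Rescaled by the median of ratios it was 0.40. Against DMSO+EV the log2 fold changes were 0.13 in OC (SE 0.09, limma adjusted p = 0.213) and -0.14 in OL+EV (SE 0.09, limma adjusted p = 0.219). With mitochondrial genes left out and libraries set to equal totals, the OC value was 0.20 and passed (limma adjusted p = 0.0483).

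**Figure D2:**
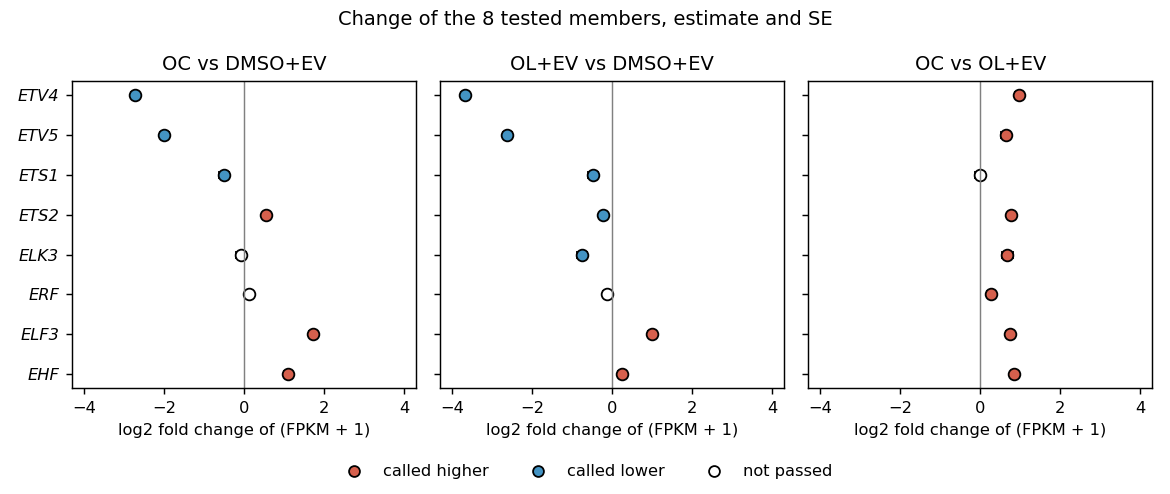
Log2 fold change of (FPKM + 1), horizontal axis, of the 8 tested ETS members in the 3 comparisons, with bars of 1 SE that mostly lie within the points. Filled points passed the test (limma, adjusted p under 0.05), red higher and blue lower; ETV4 at -2.71 and -3.69 lies farthest from 0, and in OC against OL+EV 7 of 8 points are filled red.

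Counted over the members, 3 of 8 tested rose (ELF3, EHF, ETS2) and 3 fell (ETV4, ETV5, ETS1) in OC against DMSO+EV. Of the 13775 tested genes, 69.0% were called in this comparison, 33.1% higher and 35.8% lower. In OL+EV against DMSO+EV, 2 rose (ELF3, EHF) and 5 fell (ETV4, ETV5, ELK3, ETS1, ETS2), beside 52.6% of all tested genes called, 29.0% higher and 23.5% lower. In OC against OL+EV, 7 were higher, all but ETS1, and 0 were lower, beside 60.7% of all tested genes called, 25.9% higher and 34.8% lower. At an unadjusted limma p under 0.05 the last counts were the same, 7 and 0. The same numbers of members had groups that did not overlap: 3 higher and 3 lower in OC against DMSO+EV, beside 69.8% of all tested genes (33.3% higher, 36.5% lower). In OL+EV against DMSO+EV they were 2 higher and 5 lower, beside 61.9% (34.3% higher, 27.6% lower). In OC against OL+EV they were 7 higher and 0 lower, beside 68.1% (29.6% higher, 38.4% lower). Without ETV5, the counts of the 7 other tested members were 3 higher and 2 lower in OC and 2 higher and 4 lower in OL+EV against DMSO+EV, and 6 higher and 0 lower in OC against OL+EV. The median log2 fold change of the 8 was 0.03, -0.35 and 0.71 in these comparisons, against -0.03, 0.05 and -0.09 over all tested genes. With a share of calls this large over the whole table, a call on its own does not set a member apart. Each of the 3 groups enters 2 comparisons, which therefore share libraries. Under rescaling by the median of ratios the split over all genes in OC against OL+EV was 4463 higher and 3669 lower in place of 3568 and 4788, its median moving to 0.03, and the same 7 members were called higher.

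The order of the members by level changed between groups. In OC it was ELF3, EHF, ERF, ETS2, ELK3, ETV4, ETS1, ETV5 and ETV1, and no neighbours overlapped in range. In OL+EV it was ELF3, ERF, EHF, ETS2, ELK3, ETS1, ETV4, ETV5 and ETV1, where the ranges of ERF and EHF overlapped. In DMSO+EV it was ELF3, ERF, ETV4, EHF, ELK3, ETS2, ETV5, ETS1 and ETV1, where those of ETV4 and EHF, of ELK3 and ETS2, and of ETS2 and ETV5 overlapped. ETV4 thus ranked above EHF in DMSO+EV, and below ELK3 in OC and in OL+EV.

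Of the 19 other human ETS genes listed, 14 were in the table and 10 were tested. In OC against DMSO+EV 8 of the 10 rose and 0 fell, also 0 at an unadjusted limma p under 0.05, with a median of 0.80. Those that rose were ETV7, ELF1, ETV3, SPDEF, ETV6, ELF4, ELF2 and ELK4. Of all tested genes, 33.1% were higher and 35.8% lower in this comparison, and 25.9% and 34.8% in OC against OL+EV. ETV7, an interferon-inducible repressor, had 29.6, 31.2 and 32.9 FPKM in OC, 0.503, 0.759 and 0.724 FPKM in OL+EV, and 0.308, 0.589 and 0.288 FPKM in DMSO+EV. ETV7 was thus above 1 FPKM in OC alone, which is the group through which it passed the filter (log2 fold change 4.54 against DMSO+EV, SE 0.11, limma adjusted p = 7.63e-13; 4.28 against OL+EV, SE 0.11, limma adjusted p = 1.72e-12). Without ETV7, 7 of 9 were higher and 0 lower in OC against each of the other groups, with medians of 0.72 against DMSO+EV and 0.90 against OL+EV. ELF1, an activator that is also prominent in lymphoid cells, averaged 30.7 ± 3.00 FPKM in OC, 8.68 ± 0.492 FPKM in OL+EV and 6.62 ± 1.61 FPKM in DMSO+EV (SD, n = 3 each), log2 fold changes of 2.08 in OC and 0.37 in OL+EV against DMSO+EV (limma adjusted p = 1.21e-08 and 0.0331).

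SPDEF, a factor of secretory epithelium, moved in opposite directions in the osimertinib groups. SPDEF had 8.62, 8.72 and 9.71 FPKM in OC, 1.77, 1.54 and 1.43 FPKM in OL+EV, and 3.70, 5.15 and 4.42 FPKM in DMSO+EV. The groups did not overlap, with DMSO+EV in the middle (0.89 in OC, limma adjusted p = 9.24e-06; -1.06 in OL+EV, limma adjusted p = 3.90e-06; 1.96 in OC against OL+EV, limma adjusted p = 8.58e-09). In OL+EV against DMSO+EV, 3 of the 10 other ETS genes rose (ELF1, ELF2, ETV3), 3 fell (SPDEF, ELK4, ELK1) and the median was 0.10, or -0.01 without ETV7; under rescaling by the median of ratios 0 rose and 3 fell. In OC against OL+EV 8 were higher and 0 lower (0 also at an unadjusted limma p under 0.05), with a median of 0.91. Over all tested genes, 29.0% were higher and 23.5% lower in OL+EV against DMSO+EV. For OC against OL+EV the shares were 25.9% and 34.8%.

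**Figure D3:**
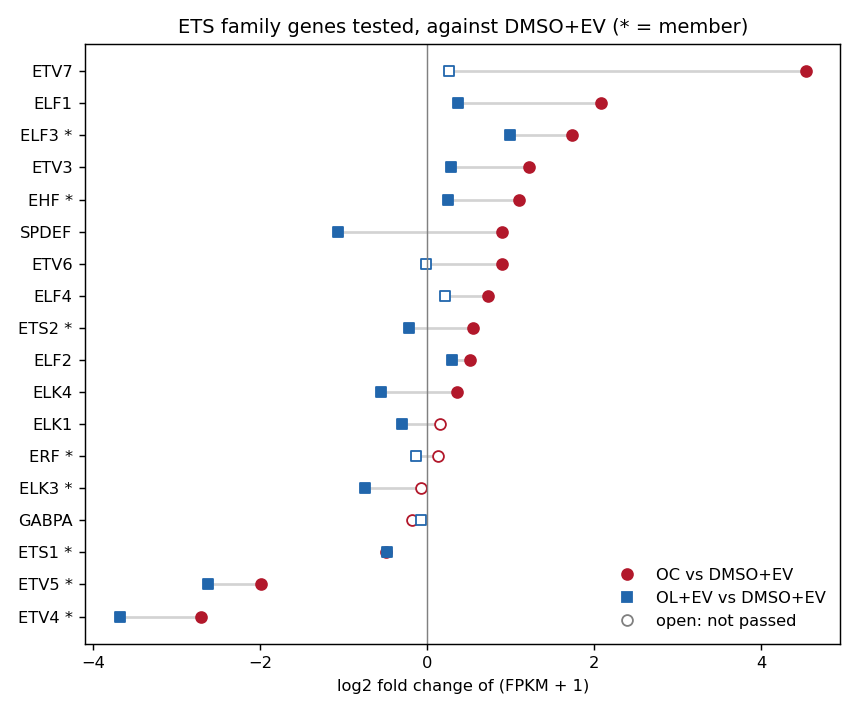
Log2 fold change of (FPKM + 1), horizontal axis, of the 18 tested ETS family genes against DMSO+EV: red circles OC, blue squares OL+EV, open where the test was not passed, a star by each of the members described here. The ETS genes range from ETV4 at -3.69 in OL+EV to ETV7 at 4.54 in OC, and SPDEF, ETS2 and ELK4 have filled points on both sides of 0.

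Summed over the 23 ETS genes in the table, the level was 467 ± 10.3 FPKM in OC, 252 ± 7.49 FPKM in OL+EV and 204 ± 9.60 FPKM in DMSO+EV (SD, n = 3 each). ELF3 made up 52.3 ± 2.81% of this sum in OC, 57.7 ± 0.263% in OL+EV and 35.8 ± 3.10% in DMSO+EV. The PEA3 genes made up 0.528 ± 0.0201% in OC, 0.197 ± 0.0402% in OL+EV and 11.2 ± 0.647% in DMSO+EV (SD, n = 3 each). ELF3 thus held over 50% of the summed ETS level in the osimertinib groups, and the PEA3 genes held over 1% in DMSO+EV alone.

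**Figure D4:**
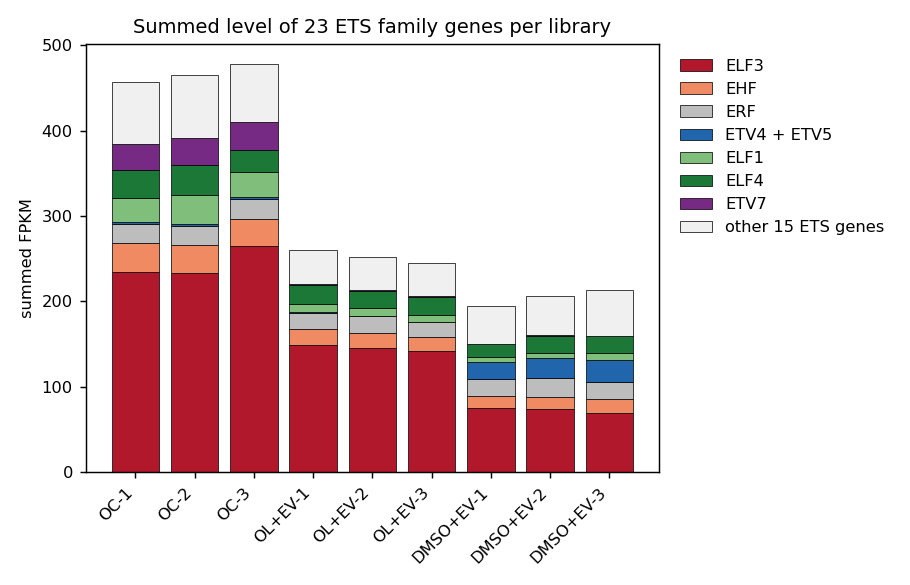
Stacked bars of the summed FPKM of 23 ETS family genes in each of the 9 libraries, OC at the left, then OL+EV, then DMSO+EV. The means are 467, 252 and 204 FPKM; the blue band of ETV4 and ETV5 is thick in the DMSO+EV bars alone, and the ELF3 segment is tallest in OC.

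The outputs of ERK signalling were compared with ETV4 and ETV5, since the same pathway induces them. Of 16 listed, 15 were tested. In OC against DMSO+EV 13 fell, 1 rose and 1 did not pass (median -1.77), and in OL+EV 14 fell and 1 rose (median -2.83). Over all tested genes, 35.8% fell and 33.1% rose in OC, and 23.5% fell and 29.0% rose in OL+EV. Of the 15 outputs, 5 (DUSP6, SPRY4, SPRED1, PHLDA1 and EGR1) passed the filter through DMSO+EV alone. Among the other 10, 8 fell in OC and 9 in OL+EV. These 10 include FOSL1, which reached 1 FPKM in 5 libraries. DMSO+EV was the only group where every library did so, and the fall of FOSL1 was thus also partly set by the filter. EGR1, an immediate early factor, averaged 0.389 ± 0.184 FPKM in OC, 0.174 ± 0.0793 FPKM in OL+EV and 54.1 ± 4.38 FPKM in DMSO+EV (SD, n = 3 each). FOSL1, an AP-1 subunit that ERK stabilizes, averaged 0.801 ± 0.210 FPKM in OC, 0.825 ± 0.220 FPKM in OL+EV and 31.8 ± 2.16 FPKM in DMSO+EV (SD, n = 3 each). EPHA4 was the output that rose, with log2 fold changes of 0.96 in OC and 0.85 in OL+EV (limma adjusted p = 3.75e-06 and 2.40e-05).

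Between the osimertinib groups the outputs split. In OC against OL+EV 7 of 15 were higher, 1 was lower and 7 did not pass (median 0.24). Among the 10 that did not pass the filter through DMSO+EV alone, 6 were higher and 1 lower (median 0.65). Over all tested genes, 25.9% were higher in OC than in OL+EV and 34.8% lower. SPRY2, a feedback inhibitor of receptor signalling, had 1.39, 1.42 and 1.63 FPKM in OC, 0.254, 0 and 0.196 FPKM in OL+EV, and 1.54, 1.23 and 1.66 FPKM in DMSO+EV. Its OC libraries lay within the DMSO+EV range (log2 fold change 0.00, SE 0.11, limma adjusted p = 0.977) and above those of OL+EV (1.11, SE 0.11, limma adjusted p = 2.72e-06). DUSP4, an ERK phosphatase, was at 10.1% of its DMSO+EV mean in OC and 2.04% in OL+EV, close to the 10.4% and 2.45% of ETV4. EPHA2 was at 27.3% in OC and 7.82% in OL+EV, and CCND1 (cyclin D1) at 27.2% in OC and 12.9% in OL+EV. DUSP6, another ERK phosphatase, was at 0.543% in OC and 1.77% in OL+EV, and its difference between them did not pass (-0.21, SE 0.10, limma adjusted p = 0.0784). MYC was lower in OC than in OL+EV (-0.50, SE 0.09, limma adjusted p = 0.000228). The ERK outputs thus did not all share the order of ETV4 and ETV5, whose means were highest in DMSO+EV and lowest in OL+EV: 9 of 15 had means in that order, whether or not each step passed. Among these, SPRY4, SPRED1, PHLDA1 and EGR1 passed the filter through DMSO+EV alone, as did ETV5. For these genes the top place of DMSO+EV was partly set by the filter. The others in that order were DUSP4, DUSP5, SPRED2, EPHA2 and CCND1.

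**Figure D5:**
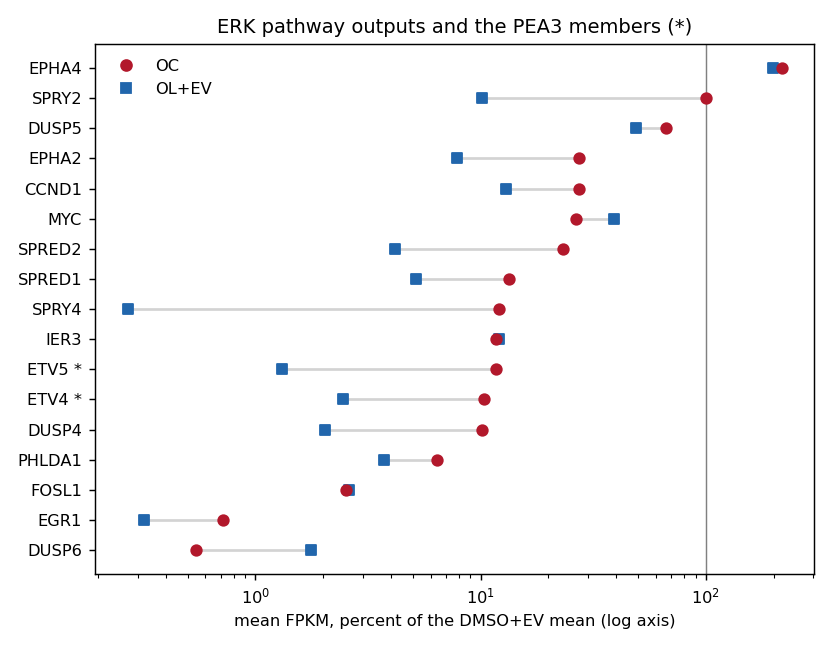
Mean FPKM in OC (red circles) and OL+EV (blue squares) as percent of the DMSO+EV mean, on a log axis, for 15 tested ERK outputs and, starred, ETV4 and ETV5. The vertical line marks 100%. ETV4, ETV5 and DUSP4 lie between 10.1% and 11.7% in OC and between 1.31% and 2.45% in OL+EV, and SPRY2 lies at the line in OC.

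Among 16 regulators and partners of ETS factors, 15 were tested. CIC, the repressor of the PEA3 genes, had 15.3, 14.6 and 11.7 FPKM in OC, 10.9, 11.4 and 9.82 FPKM in OL+EV, and 8.22, 10.3 and 9.01 FPKM in DMSO+EV. CIC was higher in OC than in DMSO+EV (0.54, SE 0.11, limma adjusted p = 0.000812) and than in OL+EV (0.34, SE 0.11, limma adjusted p = 0.0194), and OL+EV overlapped DMSO+EV (0.20, SE 0.11, limma adjusted p = 0.153). ATXN1L, which binds and stabilizes CIC, rose in OC alone to 12.1 ± 2.07 FPKM, against 5.78 ± 0.160 FPKM in OL+EV and 5.81 ± 0.429 FPKM in DMSO+EV (SD, n = 3 each). FOS and JUN are AP-1 subunits that bind DNA beside ETS factors. FOS averaged 2.13 ± 0.279 FPKM in OC, 215 ± 5.37 FPKM in OL+EV and 263 ± 6.63 FPKM in DMSO+EV, and JUN averaged 30.7 ± 1.24 FPKM in OC, 90.4 ± 3.30 FPKM in OL+EV and 51.4 ± 1.18 FPKM in DMSO+EV (SD, n = 3 each). FOS was thus far below both other groups in OC (-6.40 against DMSO+EV and -6.11 against OL+EV, limma adjusted p = 4.90e-15 and 8.99e-15), and it also fell in OL+EV against DMSO+EV (-0.29, limma adjusted p = 0.0154). JUN fell in OC (-0.73, limma adjusted p = 3.98e-06) and rose in OL+EV (0.80, limma adjusted p = 3.59e-06) against DMSO+EV. Both were thus lower in OC than in OL+EV (-1.53 for JUN, limma adjusted p = 5.44e-09), whereas ETV4 and ETV5 were higher. Over the list 9 rose and 3 fell in OC and 5 rose and 2 fell in OL+EV against DMSO+EV (medians 0.48 and 0.22). In OC against OL+EV 4 were higher and 3 lower (median 0.15), and 8 and 2 under rescaling by the median of ratios. Over all tested genes the shares higher and lower were 33.1% and 35.8% in OC and 29.0% and 23.5% in OL+EV against DMSO+EV. For OC against OL+EV they were 25.9% and 34.8%.

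Genes that have been described as targets of PEA3 factors, ETS1 or ETS2 did not move as 1 group. Of 22 listed, 10 were tested; most matrix metalloproteinases of the list were below the filter. In OC against DMSO+EV 5 rose, 3 fell and 2 did not pass (median 0.27). In OL+EV 3 rose, 6 fell and 1 did not pass (median -0.46), and in OC against OL+EV 6 were higher and 3 lower (median 0.92). MMP14, which rose in OL+EV and was lower in OC than in OL+EV, reached 1 FPKM in 4 libraries. OL+EV was the only group where every library did so, and these calls of MMP14 were partly set by the filter. Of all tested genes, 33.1% rose and 35.8% fell in OC, and 29.0% rose and 23.5% fell in OL+EV, against DMSO+EV. Between OC and OL+EV, 25.9% were higher in OC and 34.8% lower. A split in both directions was thus not particular to this list. MMP13, a collagenase, averaged 108 ± 2.62 FPKM in OC, 11.9 ± 0.836 FPKM in OL+EV and 4.83 ± 0.813 FPKM in DMSO+EV (SD, n = 3 each), log2 fold changes against DMSO+EV of 4.23 in OC and 1.15 in OL+EV (limma adjusted p = 1.00e-12 and 1.09e-06). SPP1 (osteopontin) had 83.8, 83.6 and 102 FPKM in OC, 14.7, 13.4 and 12.1 FPKM in OL+EV, and 15.3, 20.0 and 24.2 FPKM in DMSO+EV. MET, the hepatocyte growth factor receptor, averaged 5.56 ± 0.952 FPKM in OC, 1.29 ± 0.228 FPKM in OL+EV and 5.09 ± 0.924 FPKM in DMSO+EV (SD, n = 3 each). Of these, MET and SPP1 fell in OL+EV (-1.40 and -0.52, limma adjusted p = 2.00e-06 and 0.00844), and in OC the MET value was 0.11 (SE 0.14, limma adjusted p = 0.502).

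Described targets of ELF3 or EHF and other epithelial genes numbered 21, of which 17 were tested. In OC against DMSO+EV 9 rose, 4 fell and 4 did not pass (median 0.41). In OL+EV against DMSO+EV 4 rose, 1 fell and 12 did not pass (median 0.07, and -0.01 under rescaling by the median of ratios), while ELF3 itself rose. The 1 that fell was SPRR1B, which reached 1 FPKM in 4 libraries. DMSO+EV was the only group where every library did so. The falls of SPRR1B in OL+EV and in OC were thus partly set by the filter. In OC against OL+EV 8 were higher and 4 lower (median 0.11), with 11 higher and 3 lower under quantile normalization (median 0.64) and a median of 0.25 under rescaling by the median of ratios. Beside these counts, 33.1% of all tested genes rose and 35.8% fell in OC, and 29.0% rose and 23.5% fell in OL+EV, against DMSO+EV. Between OC and OL+EV the shares were 25.9% higher and 34.8% lower in OC. OVOL1, an epithelial zinc finger factor, had 26.1, 24.6 and 26.9 FPKM in OC, 7.44, 6.93 and 6.74 FPKM in OL+EV, and 5.73, 7.17 and 7.21 FPKM in DMSO+EV. CDH1 (E-cadherin) averaged 121 ± 15.5 FPKM in OC, 48.9 ± 4.40 FPKM in OL+EV and 41.9 ± 9.20 FPKM in DMSO+EV, and ST14, the protease matriptase, 130 ± 4.94 FPKM in OC, 43.7 ± 1.84 FPKM in OL+EV and 51.7 ± 6.64 FPKM in DMSO+EV (SD, n = 3 each). All 3 rose in OC (log2 fold changes 1.81, 1.52 and 1.32 against DMSO+EV, limma adjusted p = 2.30e-09, 8.74e-07 and 8.38e-08), and in OL+EV their values against DMSO+EV, 0.07, 0.24 and -0.23, did not pass (limma adjusted p = 0.596, 0.199 and 0.0749). OVOL2, a relative of OVOL1, went the other way, at 3.86 ± 0.427 FPKM in OC, 10.5 ± 0.760 FPKM in OL+EV and 5.74 ± 0.386 FPKM in DMSO+EV (SD, n = 3 each; -0.47 in OC and 0.77 in OL+EV, limma adjusted p = 0.000798 and 2.52e-05).

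For the most abundant member of each class, the genes with the most similar profile were sought among 13774 others, by the root mean square difference of centred log2(FPKM + 1) over the 9 libraries. Nearest to ETV4 were DUSP4 (0.114), TPX2 (0.149), a mitotic spindle factor, and SLC43A3 (0.229), a nucleobase transporter. TPX2 averaged 3.05 ± 0.0968 FPKM in OC, 1.59 ± 0.165 FPKM in OL+EV and 30.4 ± 2.59 FPKM in DMSO+EV (SD, n = 3 each), and was likewise lowest in OL+EV. Nearest to ELF3 were GADD45B (0.0738), a stress-induced gene, P2RX4 (0.0751), an ATP-gated channel, and PBXIP1 (0.0822). GADD45B averaged 45.9 FPKM in OC, 29.5 FPKM in OL+EV and 13.5 FPKM in DMSO+EV. Nearest to ETS2 were CD46 (0.0525), a complement regulator, EHBP1 (0.0538) and GPR1 (0.0646), and nearest to ERF were SERPINH1 (0.0404), a collagen chaperone, UBE2O (0.0503) and MMP15 (0.0541). These distances are descriptions over 9 libraries that fall into 3 groups.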

How the data were processed

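The 9 H1975 RNA-seq libraries came as 1 matrix of 34021 genes by symbol. It names no unit; totals and decimals of the deposited values point to FPKM made by the authors, with no steps of whole reads. The submitters' processing notes name hg38, STAR, edgeR and Bowtie2 2.1.0. Counter, annotation and strand setting were not stated in the labels. The labels' protocols give all samples 1 extraction with RNase R, which digests linear RNA, after 3 days and after dead cells were washed away, while these libraries are labelled 8 days. Whether it applied to them is not settled.

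The test was limma 3.58.1 (R 4.3.3; trend, robust) in 1 fit over 9 libraries, with log2(FPKM + 1) as input, on the 13775 genes with at least 1 FPKM in at least 3 libraries. P-values were two-sided and adjusted by Benjamini-Hochberg over all of these (threshold 0.05). The fit was tested on simulated data: of 100 genes changed by 1 log2 unit, 90, 99 and 98 were called in OC against DMSO+EV, OL+EV against DMSO+EV and OC against OL+EV. Of all calls there, which also held genes with a larger change, 7 of 197, 13 of 212 and 10 of 207 fell on unchanged genes. The changed genes were drawn from those well above the filter in DMSO+EV, so the recovery does not cover low genes such as ETS1. Far fewer genes were changed than were called in the real data. Members and lists were chosen with earlier results of these data known. Named were all members, up to 4 called genes per list and comparison with the largest change (others named were chosen after their values were seen), and 3 genes of the most similar profile per class. Alternatives are given in the closing section. Positions are from RefSeq, GRCh38.p14.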

Additional observations from a re-analysis of the deposited data

How the results depend on the processing

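No member's fold change that had passed reversed under any alternative, and over all members, comparisons and alternatives 437 of 474 gave the same call, 36 lost it and 1 gained it. Members called higher in OL+EV against DMSO+EV (2) numbered 1 under rescaling by the median of ratios and 1 with no filter, where EHF had limma adjusted p = 0.152 and 0.0746. With a filter at 5 FPKM, which left ETV5 and ETS1 untested, 1 member was lower in OC and 3 in OL+EV against DMSO+EV. Requiring an absolute log2 fold change of at least 1 as well gave 0 higher and 2 lower members in OL+EV against DMSO+EV and 0 higher in OC against OL+EV, where ETV4 stood at 0.98; calls over all genes were then 3004 in OC and 1266 in OL+EV against DMSO+EV, and 1510 in OC against OL+EV. Leaving out 1 library at a time gave 1 to 2 members higher and 4 to 5 lower in OL+EV against DMSO+EV, 6 to 7 higher in OC against OL+EV, and 3 and 3 in OC against DMSO+EV. In OL+EV against DMSO+EV the calls lost were those of EHF and ETS2: EHF in 7 of 9 such fits, kept without OC replicate 3 or DMSO+EV replicate 3, and ETS2 in 8 of 9, kept without OC replicate 3. ETS2 in OL+EV was also lost with mitochondrial genes left out and equal totals (limma adjusted p = 0.0966). EHF there was 0.16 under rescaling by the median of ratios, and ETS2 -0.14 with a pseudocount of 5. The cause was not tested.

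Same-numbered libraries of different groups did not deviate together (correlations of -0.315 to 0.0358, 0 of 9 over 0.1). Differently numbered ones gave -0.155 to 0.329, the highest between DMSO+EV replicate 1 and OL+EV replicate 3. Deviations from a mean of 3 libraries cannot exclude a pairing. With the replicate block, 1 member was higher and 4 lower in OL+EV against DMSO+EV (EHF limma adjusted p = 0.0751, ETS2 0.0823), and calls over all genes were 9204, 6838 and 7963 in OC against DMSO+EV, OL+EV against DMSO+EV and OC against OL+EV. With 3 libraries a group and unknown depth, the levels of ETV1, and of ETV5 in OL+EV, have no estimate of counting error.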
